A study of Mus musculus with 4 samples.

Results

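MicroRNA precursor loci outside the imprinted chromosome 12 locus were examined on whole-genome expression arrays of mouse brain. A locus is represented on the array by a transcript cluster, a set of probes designed for that locus and summarised as 1 value. A cluster was taken when its description in the deposited table named it a microRNA. Clusters of the imprinted locus on chromosome 12, of the let-7 and miR-9 families and of miR-98, miR-335, miR-497 and miR-195 were left out. This gave 853 of 33793 clusters, out of 924 microRNA clusters in all. The clusters left out were 50 of the chromosome 12 locus and 21 of the named families. Of the 853 clusters, 515 carried a gene symbol (462 distinct symbols) and 338 carried only an Ensembl gene ID. They lay on 21 chromosomes, with 154 on chromosome 2 and 75 on the X chromosome.

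The arrays held total RNA from the whole brain of adult female 129SV mice. Of 4 arrays, 2 were of wild-type brain and 2 of Adar2-/- brain. Adar2 (gene symbol Adarb1) encodes ADAR2, an enzyme that deaminates adenosines of double-stranded RNA to inosines. Per the study's methods, both genotypes also carried a pre-edited Gria2 R/R allele, which spares Adar2-/- mice an early death, and the animals were siblings. The knockout is constitutive, so it is not restricted to a brain region or cell type. The labels gave a genotype and a replicate number for each array, and the p-values below measure only the spread between these 4 arrays. Signals are log2 values, and differences are knockout minus wild type on that scale. Across all clusters the median signal was 6.03 to 6.09 on the 4 arrays. Adarb1 itself was at 10.50 and 10.45 in wild type and at 9.16 and 8.96 in the knockout. Neuron, astrocyte and oligodendrocyte markers were all at or above 9.14 on every array. The anterior pituitary hormone genes Prl and Gh differed by 4.12 and 3.17 in favour of the knockout arrays.

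A microRNA is transcribed as part of a long primary transcript that folds into a hairpin. Drosha with Dgcr8 cuts the hairpin out, exportin-5 carries it to the cytoplasm, and Dicer releases the mature strand that guides an Argonaute protein. Bases 2 to 8 of the mature strand, the seed, pair with target mRNAs, so precursors that share a seed form a family. Hairpins are double-stranded and can be bound by ADAR enzymes, and many lie in introns of host genes or in clusters transcribed together. The array reads RNA that overlaps the locus and does not tell primary transcript, hairpin and mature strand apart, nor an edited base from an unedited one.

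Sequences were available in RefSeq (GRCm38.p6) for 367 of the 853 clusters, matched by accession or symbol to a hairpin that overlapped the cluster's span. In 340 of these the 2 spans were identical. The coordinates below are those of the deposited table, which names no genome build. Mature strands are shown for precursors that differed most between genotypes and had a signal above the Y-linked limit described below, and for a few relatives named with each set. Capitals mark the seed, bases 2 to 8 from the 5′ end. The first set holds precursors with a higher signal in the knockout, together with miR-103, which shares its seed with miR-107, and miR-16, which is made from both Mir16 precursors described below.
miR-107-3p: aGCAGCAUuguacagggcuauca
miR-103-3p: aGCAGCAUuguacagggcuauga
miR-344d-3p: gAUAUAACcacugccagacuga
miR-1190: uCAGCUGAgguuccccucuguc
miR-2137: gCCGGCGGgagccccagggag
miR-542-3p: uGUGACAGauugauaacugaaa
miR-16-5p: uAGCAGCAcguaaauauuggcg
The second set holds precursors with a lower signal in the knockout, together with the relatives of miR-181b.
miR-181b-5p: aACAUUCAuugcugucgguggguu
miR-181a-5p: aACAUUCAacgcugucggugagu
miR-181d-5p: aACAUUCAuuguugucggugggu
miR-186-5p: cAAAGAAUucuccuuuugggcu
miR-1899: aGCGAUGGccgaaucugcuucc
miR-3101-3p: uAGCUUUGguggauggucuuu

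The deposited table holds no detection calls, so Y-linked genes, which female mice lack, were used to show the signal of an absent transcript. The 8 Y-linked clusters ranged from 3.44 to 5.43, the highest being Sry. The range was not tested on short precursor clusters, so a signal above it need not mean that the precursor is expressed. Of 13 clusters of muscle and liver precursors, 2 lay above 5.43 on all 4 arrays. Of the microRNA clusters, 298 (34.9%) lay above 5.43 on all 4 arrays, against 57.7% of all clusters on the array. Without Sry and Zfy1, which are the brightest of the 8, the limit was 4.40 and 472 microRNA clusters lay above it on all 4 arrays. The median microRNA signal was 4.96 and 4.80 in wild type and 4.94 and 4.93 in the knockout. A microRNA cluster had a median of 13 probes, against 22 for all clusters. The table marked 391 of them (45.8%) as having probes that can cross-hybridize with other transcripts, against 14.7% of all clusters. Of the 853, 63 shared all 4 values with another cluster, and 810 remained when repeats were counted once. The span was over 300 bases in 12 clusters, such as those of Mir155 and Mir29b-2, whose span reaches well beyond the hairpin.

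Among clusters with a symbol, the 10 of highest mean signal were Mir5099, Mir449b, Mir5125, Mir692-1, Mir761, Mir1956, Mir1195, Mir5115, Mir466h and Mir15a. Signals of different clusters depend on their probes, so this is not an order of abundance. Mir5099 was at 13.23 on both wild-type arrays and at 13.35 and 13.43 in the knockout. Mir15a, which lies in the Dleu2 transcript, was at 8.62 and 8.79 in wild type and at 8.66 and 8.75 in the knockout. None of these 10 had a limma p below 0.05, and their differences ran from -0.14 to 0.19. Of the 10 clusters, 8 were marked for cross-hybridization, the exceptions being Mir5099 and Mir15a.

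To ask whether precursor levels differed without ADAR2, all 33793 clusters were fitted with limma and p-values were adjusted over all of them. No microRNA cluster had an adjusted p below 0.05, and the lowest was 0.834, shared by all 70 clusters counted next. No cluster of the whole array passed either (0%), the lowest adjusted p being 0.409 for Adarb1. At an unadjusted p below 0.05, 70 microRNA clusters (8.21%) were counted, against 5.95% of all clusters. They divided into 46 higher in the knockout (5.39%, against 3.64%) and 24 lower (2.81%, against 2.31%). The 2 genotypes did not overlap in 271 clusters (31.8%), against 34.1% of all clusters. The median difference was 0.03 over the microRNA clusters and 0.005 over all clusters. The median absolute difference between genotypes was 0.135, while the replicates of a genotype differed by a median of 0.20 in wild type and 0.19 in the knockout. Over all clusters these were 0.10, 0.13 and 0.13. The first compares means of 2 arrays and the others single arrays, so the first would be smaller without any genotype effect as well. After each array was centred on its median, 29 clusters were higher and 35 lower, and over all clusters the counts turned from 1230 higher and 779 lower to 801 and 1229. Without wild-type replicate 2, 32 were higher (3.75%, against 2.87% of all clusters) and 43 lower (5.04%, against 2.02%), while over all clusters more were higher. Below, a p always means the unadjusted limma p, it is used only to count or select clusters, and none of the differences that follow passed the adjusted threshold.

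Dim clusters made up most of these counts. At or below the Y-linked limit in the mean of the 4 arrays, 50 of 521 microRNA clusters (9.60%) had a p below 0.05, against 7.75% of all such clusters. Above it, 20 of 332 (6.02%) did, against 4.8%. A fit on the clusters above the limit alone counted 20 higher and 10 lower of the 332 (6.02% and 3.01%, against 3.04% and 3.06% of all clusters fitted). In the fit on all clusters, 14 of these were higher (4.22%, against 2.50% of all bright clusters) and 6 lower (1.81%, against 2.30%), and the median difference was 0.04. After median centring the counts were 8 higher and 13 lower, with a median of 0.0025. Over all clusters, bright or dim, centring also turned the balance, to 2.37% higher and 3.64% lower. No share over the bright clusters alone is given for that refit, so the turn is not read as particular to the microRNA clusters. The balance also turned when wild-type replicate 2 was left out.

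**Figure D1:**
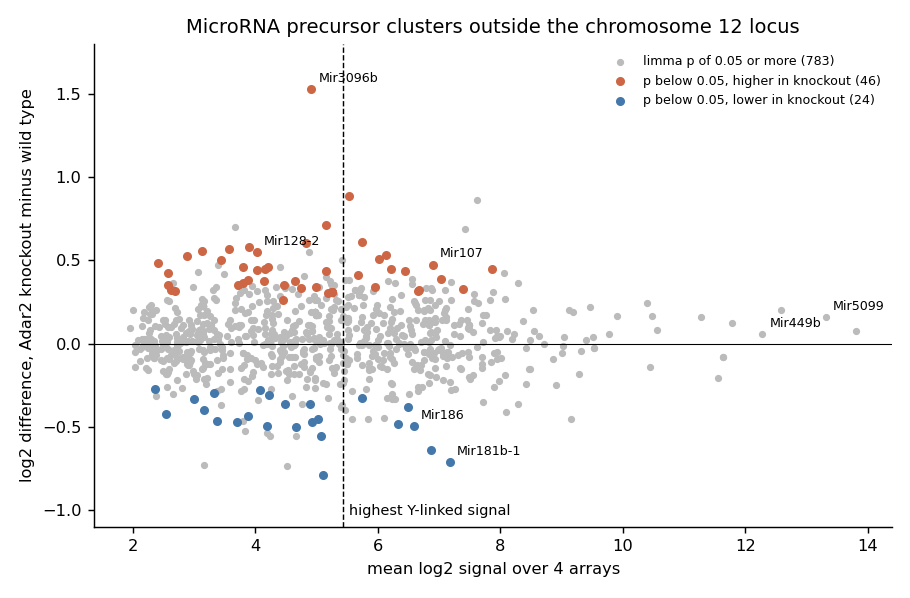
Each point is 1 of 853 microRNA precursor clusters, with its mean log2 signal over the 4 arrays on the x axis and its log2 difference (knockout minus wild type) on the y axis. Orange and blue points have a limma p below 0.05 (46 higher, 24 lower), the dashed line marks the highest Y-linked signal of 5.43, and 50 of the 70 coloured points lie at or left of it.

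Only Mir3096b differed at least 2-fold with a p below 0.05, which 0.0681% of all clusters did. It was at 4.21 and 4.09 in wild type and at 6.47 and 4.89 in the knockout (chr5:23852201-23852291). Both knockout arrays were higher, but they lay further apart than the genotype means, and only the first passed the Y-linked limit. The difference was 1.53 ± 0.48 (SE). It was 0.74 without knockout replicate 1 and 2.32 without knockout replicate 2, and with either wild-type array left out (1.59 and 1.47) the p no longer fell below 0.05. The cluster has 8 probes and is marked for cross-hybridization. Its namesake Mir3096, on the other strand of the same chromosome, was at 5.76 and 5.56 in wild type and at 5.69 and 5.89 in the knockout. The number of clusters at least 2-fold different with a p below 0.05 was 3 without wild-type replicate 2, 4 without knockout replicate 1 and 3 without knockout replicate 2.

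Above the Y-linked limit in the higher genotype, 6 named precursors were higher in the knockout at a p below 0.05, with both knockout arrays above both wild-type arrays. These were 1.17% of the 515 with a symbol, against 1.44% of all clusters with a symbol. Mir3096b is 1 of them and met the signal limit only through its knockout mean, while the other 5 lay above it in the mean of the 4 arrays. Mir107 (chr19:34820687-34820773), in an intron of the pantothenate kinase gene Pank1, was at 6.65 and 6.66 in wild type and at 7.02 and 7.24 in the knockout. The difference was 0.48 ± 0.12 (SE). It was 0.47 and 0.48 with wild-type replicate 1 or 2 left out, in either case with a p above 0.05. Mir344d-2 (chr7:61685272-61685351), one of a repeated family on chromosome 7, was at 5.99 and 5.98 in wild type and at 6.35 and 6.52 in the knockout. Its difference was 0.45 ± 0.11 (SE). Of the 4 precursors matched to the seed of miR-344d-3p, 3 were higher and 1 lower, from -0.145 to 0.45 with a median of 0.08. Mir107 and Mir344d-2 were nearly identical between the wild-type arrays, and both are marked for cross-hybridization, as are Mir1190 and Mir2137.

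Mir1190 (chr12:101021673-101021793), inside Ccdc88c, was at 6.29 and 6.17 in wild type and at 6.70 and 6.63 in the knockout. Its difference was 0.44 ± 0.11 (SE). Mir2137 was at 7.46 and 7.81 in wild type and at 7.90 and 8.27 in the knockout, a difference of 0.45 ± 0.18 (SE). The gap between its groups, from 7.81 to 7.90, was smaller than the gap within either. After median centring the difference of Mir2137 was 0.41, with a p above 0.05. Its p was above 0.05 whichever of the 4 arrays was left out, and the difference then ran from 0.265 to 0.635, the lowest without knockout replicate 2 and the highest without knockout replicate 1. Mir542 (chrX:53049403-53049487), the precursor of a microRNA in the X-linked group with miR-450, was at 5.53 and 5.42 in wild type and at 5.99 and 5.78 in the knockout. The difference was 0.41 ± 0.12 (SE). With wild-type replicate 1, wild-type replicate 2 or knockout replicate 1 left out it was 0.465, 0.355 or 0.305, each with a p above 0.05. Its neighbours Mir450-1, Mir450-2 and Mir450b differed by 0.005 to 0.015 and lay below the Y-linked limit.

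Lower in the knockout by the same rule were 5 precursors (0.971%, against 1.65% of all clusters with a symbol). Mir181b-1 (chr1:137966639-137966718), of a family expressed in brain and in developing lymphocytes, was at 7.81 and 7.25 in wild type and at 7.06 and 6.58 in the knockout. The groups did not overlap, though knockout replicate 1 lay only just below wild-type replicate 2. The difference was -0.71 ± 0.24 (SE). It was -0.43 without wild-type replicate 1, -0.47 without knockout replicate 2 and -0.95 without knockout replicate 1, each with a p above 0.05. This cluster is marked for cross-hybridization.

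Mir186 (chr3:157544279-157544349), in the Zranb2 gene, was at 6.92 and 6.75 in wild type and at 6.30 and 6.38 in the knockout. Its difference was -0.50 ± 0.11 (SE), measured with 5 probes. Mir1899 (chr9:8246786-8246881) was at 6.60 and 6.55 in wild type and at 6.12 and 6.06 in the knockout. It differed by -0.48 ± 0.10 (SE), with the lowest p among the precursors with a symbol, and its replicates were within 0.06 of each other. Mir1949 and Mir3101 were lower by less, with differences of -0.38 ± 0.14 and -0.33 ± 0.12 (SE). Without wild-type replicate 1 they were -0.425 and -0.22, and without knockout replicate 2 they were -0.215 and -0.265, each with a p above 0.05. The p also passed 0.05 for Mir1949 without wild-type replicate 2 (-0.335) and for Mir3101 without knockout replicate 1 (-0.385). Of the 11 precursors, Mir344d-2, Mir1190, Mir186 and Mir1899 kept a p below 0.05 whichever array was left out.

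**Figure D2:**
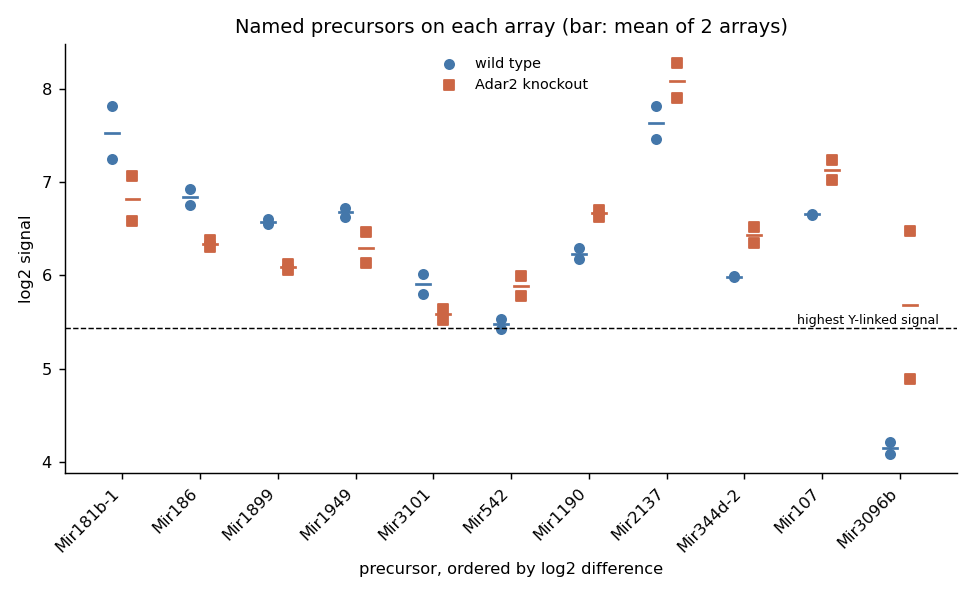
The log2 signal (y axis) of the 11 named precursors on each array is shown, ordered by difference, with wild type in blue circles, Adar2-/- in orange squares and a short bar at each mean of 2 arrays. Precursors whose groups overlap were not taken by the rule, so the separation of the groups is no result, and the knockout arrays of Mir3096b, at 6.47 and 4.89, lie on either side of the dashed Y-linked limit of 5.43.

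Among the clusters without a symbol, 18 of 338 were higher (5.33%, against 3.64% of all clusters) and 8 lower (2.37%, against 2.31%) at a p below 0.05. The largest differences were chosen after their values were seen. The cluster of ENSMUSG00000093217 (chrX:13653381-13653449) was at 5.18 and 5.0 in wild type and at 6.21 and 5.74 in the knockout, a difference of 0.89 ± 0.18 (SE). It is marked for cross-hybridization and its p was above 0.05 without wild-type replicate 2. That of ENSMUSG00000089244 (chr5:13902770-13902874) was at 5.34 and 5.65 in wild type and at 4.57 and 4.84 in the knockout, a difference of -0.79 ± 0.16 (SE). Neither lay above the Y-linked limit on all arrays.

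Precursors of a shared seed were then set side by side. All 5 matched members of the miR-181 family were lower in the knockout, with a median difference of -0.25 and a range from -0.71 to -0.05. Mir181a-2 was at 6.51 and 6.12 in wild type and at 6.0 and 5.98 in the knockout. Mir181d was at 7.05 and 7.27 in wild type and at 7.02 and 7.20 in the knockout, so its groups overlapped. Mir181a-1, which is transcribed beside Mir181b-1, was at 3.94 and 2.68 in wild type and at 2.96 and 3.17 in the knockout, and its wild-type arrays lay further apart than any genotype means in the family. Mir181c, which has no sequence here, differed by -0.15. Only Mir181b-1 had a p below 0.05. The median was -0.285 after median centring, -0.16 without wild-type replicate 1 and -0.14 without knockout replicate 1, and in the last case 3 of 5 were lower. It was -0.52 with wild-type replicate 2 left out, when 3 of 5 were lower at a p below 0.05, as were 5.04% of the microRNA clusters and 2.02% of all clusters in that refit.

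Precursors that share a seed also differed in direction. Mir107 and the Mir103 precursors encode mature strands of the same seed and lie in Pank1, Pank2 and Pank3. Mir103-2 was at 6.77 and 6.03 in wild type and at 6.44 and 5.70 in the knockout, a difference of -0.33 with overlapping groups, while Mir107 was 0.48 higher. Mir103-1 differed by 0.10. Mir16-1 and Mir16-2 make the same mature strand from different chromosomes. Mir16-2 was at 5.02 and 4.84 in wild type and at 5.54 and 5.19 in the knockout, a difference of 0.44 ± 0.15 (SE) with a p below 0.05. That p was lost under quantile and cyclic loess normalization and with wild-type replicate 1, wild-type replicate 2 or knockout replicate 1 left out. Mir16-1 was at 6.24 and 6.23 in wild type and at 6.66 and 6.39 in the knockout, a difference of 0.29 ± 0.13 (SE). Their cluster neighbours Mir15b and Mir15a differed by 0.05 and 0.

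The 5 matched precursors of the miR-30 seed ran from -0.735 for Mir30e to 0.43 for Mir30a. Mir30e was at 4.74 and 5.02 in wild type and at 4.75 and 3.54 in the knockout, so its value rested on knockout replicate 2. Of 2 further precursors of this name without a sequence here, Mir30b was at 5.23 and 5.26 in wild type and at 4.70 and 4.88 in the knockout, with a p below 0.05 that was lost without wild-type replicate 2, and below the Y-linked limit. Its neighbour Mir30d differed by 0.20. All 5 precursors with the seed of miR-17 were higher by 0.06 to 0.315, with none at a p below 0.05 and none above the Y-linked limit. With wild-type replicate 2 or knockout replicate 1 left out, 2 of these 5 were higher and 3 lower.

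**Figure D3:**
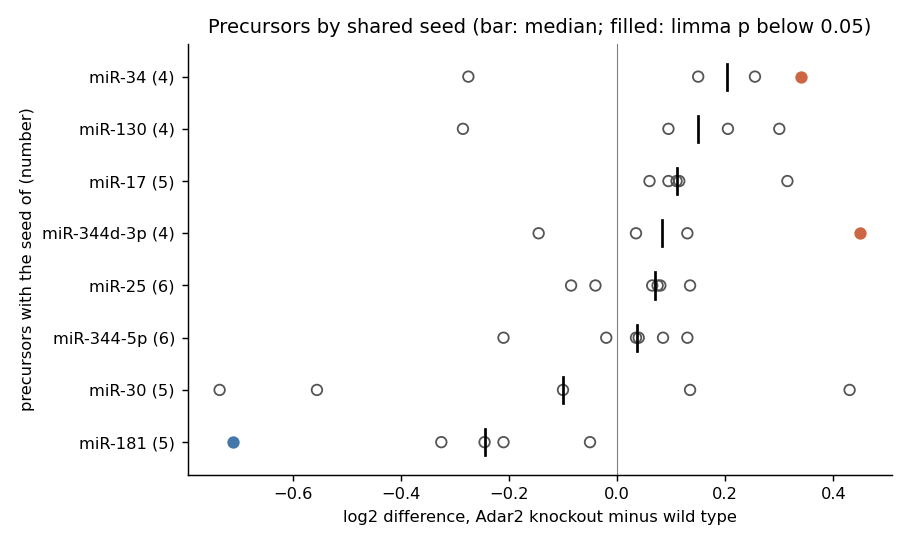
Log2 differences (x axis, knockout minus wild type) of precursors grouped by shared seed (y axis, number of precursors in brackets) are shown, with a bar at the median and filled points for a limma p below 0.05. The miR-181 family lies wholly left of 0 with a median of -0.25, the miR-17 seed wholly right of it with a median of 0.11, and the miR-30 seed spans both sides.

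The largest genomic cluster was the rodent group of repeated miR-297, miR-466, miR-467 and miR-669 precursors inside the imprinted Sfmbt2 gene (chr2:10465287-10518279). It held 99 of the 853 clusters, of which 91 were marked for cross-hybridization and 21 lay above the Y-linked limit on all arrays. Of the 99, 73 were higher in the knockout and 25 lower, with a median difference of 0.175. Repeated clusters with identical values inflated this number. Over the 64 distinct sets of values, 40 were higher and 23 lower and the median was 0.06. Of the 8 clusters not marked for cross-hybridization, 4 were higher and 4 lower, with a median of -0.065. On the 64 sets the median signal was 4.96 and 4.71 in wild type and 5.01 and 4.87 in the knockout. The medians of the wild-type arrays thus lay further apart than the median difference of 0.06 between genotypes, though this sets single arrays beside means of 2. Of the 64, 40 were lower in wild-type replicate 2 than in replicate 1. With 1 array left out the median over the 64 ran from 0.0075, without knockout replicate 1, to 0.17, without knockout replicate 2.

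At a p below 0.05, 6 of the 99 were higher and none lower (6.06%, against 3.64% of all clusters higher). These counts were not stable when 1 array was left out. The median difference of the 99 was then 0.23 without wild-type replicate 1 and 0.055 without wild-type replicate 2. It was 0.07 without knockout replicate 1 and 0.20 without knockout replicate 2. Of the 6, 3 were copies of Mir467a-3 with the same values, 5.16 and 5.04 in wild type and 5.42 and 5.40 in the knockout, and they lost that p after median centring, under both other normalizations and without any 1 array but wild-type replicate 1. One copy of Mir669k (chr2:10482612-10482738) was at 4.71 and 4.35 in wild type and at 5.32 and 4.95 in the knockout, a difference of 0.605 ± 0.18 (SE), whereas the other clusters of that symbol differed by 0.075 to 0.345. It lost its p below 0.05 without wild-type replicate 2 or knockout replicate 1. The host transcript Sfmbt2 was at 5.58 and 5.75 in wild type and at 5.89 and 5.48 in the knockout, a difference of 0.02.

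**Figure D4:**
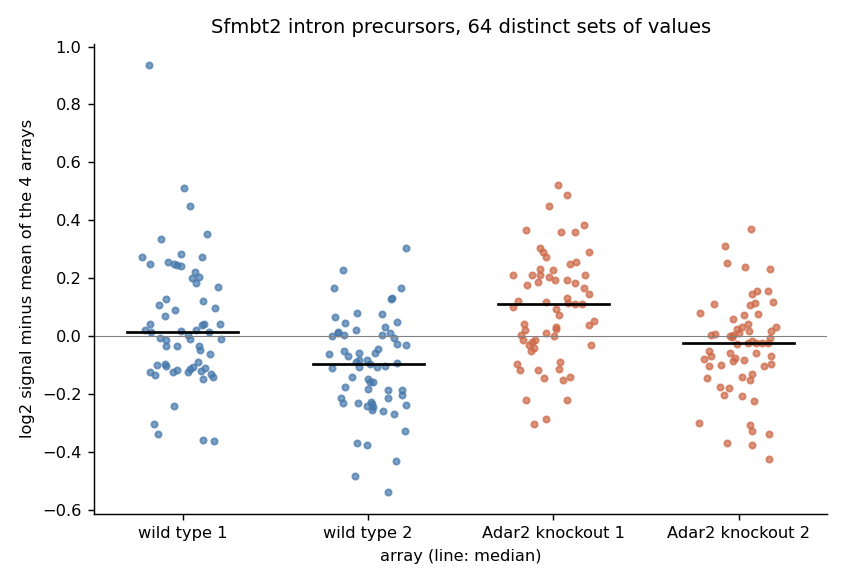
For the 64 distinct sets of values of the Sfmbt2 intron precursors, the log2 signal minus the mean of the 4 arrays (y axis) is shown for each array (x axis), with a line at the median. Wild-type replicate 1 and knockout replicate 2 centre near 0, wild-type replicate 2 below it and knockout replicate 1 above it, so arrays of the same genotype lie apart too.

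Smaller genomic groups were set beside it. In the X-linked group inside Clcn5, a chloride transporter gene, Mir188, Mir362, Mir500 and Mir501 were higher by 0.295 to 0.42 and Mir532 was lower by 0.185, none with a p below 0.05 and none above the Y-linked limit. Of the 21 clusters of the X-linked group next to Fmr1, which is known from testis, none lay above the limit. In that group 2 had a p below 0.05, against 5.95% of all clusters, and neither did with either wild-type array left out. Mir743 was at 3.57 and 3.50 in wild type and at 4.0 and 3.78 in the knockout, and its neighbour Mir743b differed by 0.45. Mir743b also lost its p below 0.05 after median centring, under quantile and cyclic loess normalization and with a replicate block. The clusters Mir17 to Mir92 and their paralogues, a proliferation-linked group, had 12 measured precursors with no p below 0.05 and a median of 0.07 (-0.03 without knockout replicate 1), and of these only Mir25 lay above the limit on all arrays.

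Precursors known from the cell types of brain were described by list. Of 28 brain-enriched precursors, 3 were higher and 1 lower at a p below 0.05, against 3.64% and 2.31% of all clusters, and 10 lay above the Y-linked limit on all arrays. Without wild-type replicate 2 these counts were 1 and 1. The median difference was 0.03, and it was -0.01 after median centring and between -0.04 and 0.12 with 1 array left out. The 4 with a low p were all below that limit, and each lost that p with at least 1 array left out: Mir128-2 without wild-type replicate 1, Mir125b-1 and Mir488 without either of 2 arrays, and Mir137 without any of 3. Mir125b-1 and Mir137 also lost it with a replicate block. Mir128-2, a neuronal precursor inside Arpp21, was at 3.70 and 3.79 in wild type and at 4.43 and 4.16 in the knockout (difference 0.55 ± 0.13, SE). Its paralogue Mir128-1, which yields the same mature strand, was at 8.11 and 7.72 in wild type and at 7.89 and 7.83 in the knockout, with overlapping groups. Mir137, of a microRNA known from neuronal maturation, was at 2.59 and 2.90 in wild type and at 2.37 and 2.28 in the knockout (difference -0.42 ± 0.14, SE). Mir125b-1 and Mir488 were higher by 0.485 and 0.38. Mir138-2, of the neuron-enriched miR-138, was at 8.09 and 7.68 in wild type and at 7.79 and 7.28 in the knockout, a difference of -0.35 with overlapping groups.

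Precursors of other cell types gave few low p-values. The oligodendrocyte list (4 clusters) had a median of -0.01, and Mir219-2 was at 7.24 and 7.43 in wild type and at 7.19 and 6.92 in the knockout, without overlap, as was so of 34.1% of all clusters. On the same arrays the oligodendrocyte marker Mog was at 10.11 and 10.21 in wild type and at 9.90 and 9.72 in the knockout, while Mbp differed by -0.02, and the part of oligodendrocyte content in the precursor value was not tested. None of 4 myeloid, 3 endothelial and mural, 4 red cell and 13 muscle and liver clusters had a p below 0.05, with medians of 0.05, 0.245, 0.05 and 0.09. Mir143, of vascular smooth muscle, was at 5.62 and 5.48 in wild type and at 5.67 and 6.07 in the knockout. Of 6 choroid plexus and cilia precursors, 4 had a difference above 0 and 1 a p below 0.05, against 5.95% of all clusters. This was Mir34b of multiciliated cells, at 4.85 and 4.80 in wild type and at 5.13 and 5.20 in the knockout, and the p was lost without wild-type replicate 2 or knockout replicate 2. In whole-tissue RNA, a change in the number of cells of a type and a change in RNA per cell cannot be told apart.

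Of 10 pituitary, olfactory and epithelial precursors, Mir182 was higher, at 3.90 and 3.71 in wild type and at 4.33 and 4.16 in the knockout, and was the only 1 of the list with a p below 0.05, against 5.95% of all clusters. It lost that p without wild-type replicate 2 or knockout replicate 1. Mir375, which is known from endocrine cells, was at 6.72 and 6.86 in wild type and at 6.60 and 6.41 in the knockout, a difference of -0.285 ± 0.12 (SE). On the same arrays the anterior pituitary genes Prl, Gh and Pomc were higher in the knockout by 4.12, 3.17 and 0.51, and 3 of 7 anterior pituitary clusters had a p below 0.05. The mean of the 7 clusters was 5.31 and 4.94 in wild type and 6.53 and 6.14 in the knockout. The part of pituitary tissue in the precursor values was not tested.

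Precursors whose mature strands the study names were described in the same way, and since the study chose them on mice of these genotypes they are not independent of them. Of 23 clusters named for edited microRNAs (16 distinct sets of values), 1 had a p below 0.05, Mir542, against 5.95% of all clusters. Identical copies of Mir467a-1 set the median, which was 0.12 over the 23 and -0.015 over the 16. Mir3099 was at 2.61 and 2.60 in wild type and at 2.61 and 2.43 in the knockout, below the Y-linked limit on every array. Mir99b, a bright member of this list, was at 8.32 and 8.29 in wild type and at 8.34 and 8.54 in the knockout. The study lists the mature miR-99b and miR-99b* as lower in the knockout, while the array difference was 0.135. Of 24 clusters named for changed abundance (17 distinct sets), none had a p below 0.05, and the median was 0.06 over the 24 and -0.025 over the 17. This list mixes microRNAs that the study found higher with others that it found lower. Its median therefore cannot show whether the directions match. Closest to a p of 0.05 was Mir872, at 6.53 and 6.11 in wild type and at 6.02 and 5.73 in the knockout. Its difference was -0.445 ± 0.18 (SE). For the mature miR-872* the study lists a rise in the knockout, the opposite direction. The directions of the list as a whole were not compared with those of the study. The array gives no base of the sequence, so editing in these precursors was not measured.

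Genes of microRNA processing and editing were set beside the precursors. Of 25 clusters of the processing machinery, all above the Y-linked limit on every array, Adarb1 alone had a p below 0.05 (adjusted p = 0.409 by limma). Drosha and Dgcr8, the nuclear cutting complex, differed by -0.05 and 0.06, Xpo5, which exports hairpins, by -0.03, and Dicer1 by 0.03. Dgcr8 was at 7.77 and 7.69 in wild type and at 7.79 on both knockout arrays. Adar, the related editing enzyme, was at 9.27 and 9.45 in wild type and at 9.37 and 9.21 in the knockout. Lin28b, an inhibitor of let-7 maturation, had the largest difference after Adarb1, 0.275, with both knockout arrays above both wild-type arrays. The groups did not overlap in 11 of the 25 clusters of this list, nor in 34.1% of all clusters.

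To see whether precursors followed their host genes, each was paired with the shortest annotated gene that contained it on the same strand. This placed 387 clusters in 248 host genes, 99 of them in Sfmbt2. The difference of the precursor and of its host had the same sign in 217 of 387, and Pearson's r across clusters was 0.02, as a description of values that share arrays and often a host. Without Sfmbt2, 144 of 288 had the same sign and r was 0.00191. Among the 153 that lay above the Y-linked limit in the mean, 83 had the same sign and r was 0.128, and without Sfmbt2 63 of 128 had the same sign and r was 0.123. Of 30 precursors inside a host that had a p below 0.05 themselves, 2 (6.67%) had a host with a p below 0.05, against 3.10% of the 387 and 5.95% of all clusters. The Cpne4 host, of the membrane-binding copine family, was at 8.69 and 8.55 in wild type and at 8.26 and 8.33 in the knockout, and the unnamed precursor ENSMUSG00000088204 inside it was lower by 0.36, with a p above 0.05 without knockout replicate 2. The host of Mir3096b, 2700038G22Rik, was at 6.98 and 6.73 in wild type and at 6.59 and 6.01 in the knockout, opposite to the precursor. The host genes of Mir107 and Mir186, Pank1 and Zranb2, differed by 0.12 and 0.13, and that of Mir128-2, Arpp21, by -0.09.

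**Figure D5:**
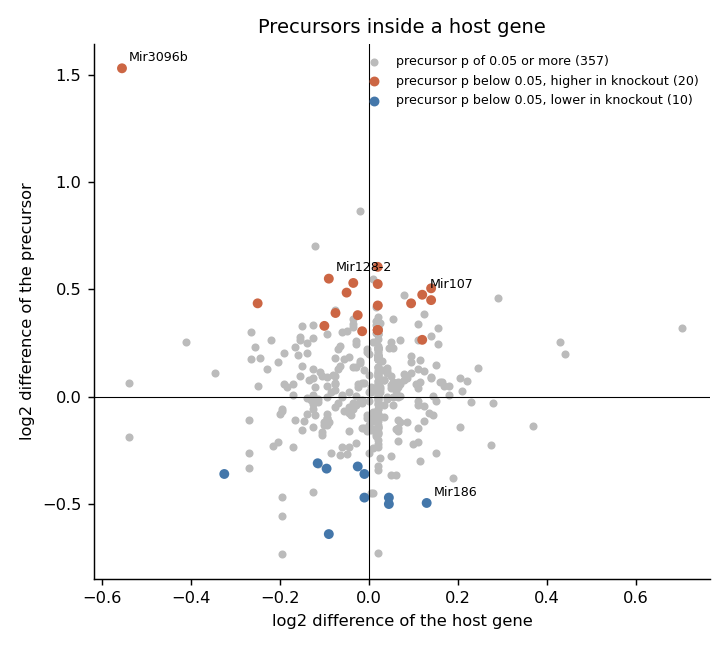
For 387 precursor clusters inside a host gene, the log2 difference of the host (x axis) and of the precursor (y axis) are shown, coloured where the precursor has a limma p below 0.05. The vertical stripe just right of 0 is the 99 precursors in Sfmbt2, which add to the upper right quadrant: it holds 150 points with them and 77 without, against 83 in the upper left, 67 in the lower left and, without Sfmbt2, 49 in the lower right.

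Base composition, which was not used to choose the clusters, went with the signal level. Over the 367 clusters with a hairpin sequence, GC content ran from 26.2% to 74.8% with a median of 48.7%. Pearson's r between GC content and mean signal across clusters was 0.453 and Spearman's rho 0.474, as a description of values measured with different probes. Of the 123 clusters of lowest GC content, 23 lay above the Y-linked limit on all arrays, against 32 of 122 in the middle and 68 of 122 in the highest. GC content and the genotype difference had an r of 0.08. The median differences of the GC classes were 0.02, 0.04 and 0.05 from low to high.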

How the data were processed

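Total RNA of 2 wild-type and 2 Adar2-/- brains was prepared with a whole-transcript kit for Affymetrix mouse gene arrays. The authors deposited 1 table of normalized log2 signals, given to 2 decimals, for 33793 transcript clusters, and the submitters' processing notes name Affymetrix Expression Console and RMA. Further columns with the authors' own ratio, fold change and p-value of knockout against wild type were not used. A log2 table gives no counts, so the number of arrays limits the precision.

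All clusters of the deposited log2 table entered 1 two-sided fit by genotype alone, made with lmFit and eBayes of limma 3.58.1 (R 4.3.3), with no filter or further normalization and with Benjamini-Hochberg adjustment over the table. The prior SD was 0.125 with 3.79 prior degrees of freedom, beside 2 residual ones. An exact permutation test of 2 against 2 arrays cannot give a two-sided p below 0.333. Named precursors were the 10 with a symbol and the highest mean signal, up to 8 each way with a symbol, a p below 0.05, groups apart and a higher genotype mean above the highest Y-linked value, every cluster at least 2-fold different with a p below 0.05, and members of the lists. The members, lists and naming rule were chosen with earlier results of these data known. Genomic groups joined starts within 10 kb. Mature sequences came from RefSeq (GRCm38.p6), and none of the 338 clusters without a symbol could be named through it. Alternatives were other normalizations, signal filters, a replicate block, other eBayes options, removal of cross-hybridizing or repeated clusters, and leaving out each array. The limit without Sry and Zfy1 was chosen after seeing the data. The fit was tested on simulated data. Tables were handled in Python 3.11.15 with pandas 2.3.3 and plotted with matplotlib 3.10.9.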

Additional observations from a re-analysis of the deposited data

How the results depend on the processing

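No microRNA cluster had an adjusted p below 0.05 under any of 14 alternatives, where the lowest adjusted p ran from 0.762 to 0.917. With an unadjusted p below 0.05, 46 were higher and 24 lower. Higher clusters numbered 29 after median centring (3.40%, against 2.37% of all clusters), which moved the median of all clusters to -0.035. In a fit above the median signal (250 clusters), 15 were higher and 8 lower (6.0% and 3.2%, against 2.37% and 3.49% of all clusters fitted). Above the highest Y-linked signal (332) the counts were 20 and 10 (6.02% and 3.01%, against 3.04% and 3.06%). Without clusters that can cross-hybridize (462) they were 23 and 17 (4.98% and 3.68%, against 3.49% and 2.60%). Leaving out 1 array gave 32 to 55 higher and 21 to 43 lower, but only 11 to 22 of the 46 and 10 to 13 of the 24 were counted again. The count at least 2-fold with a p below 0.05 was 1, and became 0 under each of the 2 signal filters and without cross-hybridizing clusters, 1 to 4 with 1 array left out, and 8 at a 1.5-fold threshold. Above the Y-linked range on all arrays were 298 clusters, and 472 when Sry and Zfy1 were left out of that range. The median difference ranged from -0.01 to 0.06.

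Nothing in the labels says that the replicate numbers pair the arrays. Deviations from the genotype means of same-numbered arrays correlated at 0.05 over all clusters and 0.14 over the microRNA clusters. A fit with a replicate block counted 52 higher and 24 lower (6.10% and 2.81%, against 3.08% and 1.93% of all clusters). Over the 11 named precursors with a p below 0.05, 23 of 144 refits lost that p, of which 20 left out an array and 1, for Mir1949, used the block. None changed direction. The cause was not tested.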
